A study of Mus musculus with 2 samples.

Results

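Granzymes and perforin are the effector proteins of cytotoxic granules, and 8 of their genes were followed here across the lymphocytes of mouse melanomas: Gzma, Gzmb, Gzmc, Gzmd, Gzme, Gzmf, Gzmk and Prf1, out of 24510 genes in the table. The genes were chosen by name, and their levels were read in cells gated on marker transcripts as NK cells, CD8 T cells, CD4 T cells, regulatory T cells (Treg) and gamma-delta T cells. The cells were CD45+ leukocytes sorted from tumours of B16F10, a C57BL/6 melanoma line, grown under the skin of female C57BL/6 mice, 3 mice for each of 3 tumour genotypes: wild type, Tyr knockout and Oca2 knockout. Tyr encodes tyrosinase, the enzyme that starts melanin synthesis, and Oca2 a melanosome membrane protein that pigmentation needs. The knockouts are in the injected tumour cells, while all hosts carry the same C57BL/6 genotype per the labels, which give neither their age nor how many knockout clones were injected. Cells were pooled after antibody-linked sample tags had marked each group, and the table carries tags 8, 9 and 10. The labels used here do not say which tag marks which tumour genotype, so the tags are given side by side, no tumour genotypes are compared and no p-value is given.

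Killer lymphocytes store granzymes, a family of serine proteases, in secretory granules together with perforin, the pore-forming protein encoded by Prf1 that lets granzymes into the cytosol of a target cell. Granzyme B cleaves after aspartate and activates caspases, granzymes A and K cleave after basic residues, and the mouse carries further granzymes (C to G and N) beside Gzmb whose substrates are less well known. In tumours, the granzymes are best known as products of NK cells and CD8 T cells, and Gzmb is also described in activated Treg cells.

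The members fall into 3 loci. In the GENCODE annotation of build GRCm38, Gzmb (chr14:56258838-56262260), Gzmc (chr14:56231441-56234656), Gzmf (chr14:56205263-56211417), Gzmd (chr14:56129556-56132608) and Gzme (chr14:56117626-56120625) lie on the minus strand of chromosome 14. With Gzmn and Gzmg they make a run of 7 granzyme genes within 144.6 kb. Each of the 5 members there has 5 exons in its first listed transcript. Gzma (chr13:113093825-113100981) and Gzmk (chr13:113171608-113225908) are neighbours 70.6 kb apart on the minus strand of chromosome 13, and Prf1 (chr10:61297833-61304680), with 2 exons, lies alone on the plus strand of chromosome 10.

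Upstream sequences of the 5 members of the chromosome 14 run are shown because in the CD8 gate most molecules of Gzmc, Gzmd, Gzme and Gzmf lay in a few cells that also had Gzmb, while Gzmb itself was widespread. Each is the sense strand 5′ to 3′, from 150 to 21 bases before the RefSeq start on GRCm38.p6, read from the minus strand at chr14:56262355-56262484 (Gzmb), chr14:56234678-56234807 (Gzmc), chr14:56132614-56132743 (Gzmd), chr14:56120646-56120775 (Gzme) and chr14:56211428-56211557 (Gzmf). Capitals mark matches on either strand to TGTGGT (a RUNX core), TGANTCA (AP-1) and TGACGTCA (CRE), which do not overlap one another.
Gzmb: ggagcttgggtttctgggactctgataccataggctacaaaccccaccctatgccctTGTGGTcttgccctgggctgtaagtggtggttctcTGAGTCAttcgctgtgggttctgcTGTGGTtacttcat
Gzmc: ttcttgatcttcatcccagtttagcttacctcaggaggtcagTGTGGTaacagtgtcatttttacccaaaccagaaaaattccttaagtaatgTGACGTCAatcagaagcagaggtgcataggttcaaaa
Gzmd: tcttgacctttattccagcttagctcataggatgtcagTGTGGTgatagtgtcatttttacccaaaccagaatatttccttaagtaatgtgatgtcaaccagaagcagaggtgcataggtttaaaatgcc
Gzme: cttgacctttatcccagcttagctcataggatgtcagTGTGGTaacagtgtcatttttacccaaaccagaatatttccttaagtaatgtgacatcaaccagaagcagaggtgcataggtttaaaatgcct
Gzmf: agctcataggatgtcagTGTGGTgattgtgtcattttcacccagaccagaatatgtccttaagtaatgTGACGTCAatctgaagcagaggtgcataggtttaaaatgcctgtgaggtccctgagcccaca
The RefSeq table held an upstream sequence for all 8 members. The RUNX letters occurred in 7 of the 8 windows, against 7.58% of 27025 gene windows of the same 130 bases. The CRE letters occurred in 2 of 8 (Gzmc and Gzmf) against 1.14%, and the AP-1 letters in 1 of 8 (Gzmb) against 3.83%. The windows of Gzmc, Gzmd, Gzme and Gzmf were 86.7% to 96.1% identical over 6 pairs, highest for Gzmd and Gzme, so these 4 sequences are near copies rather than independent matches. Transcripts are alike too: 12% of the 50-base windows of Gzmd also occur in Gzme, and 8.76% of those in the last 300 bases of Gzmd occur in Gzmf. How the counting placed reads shared by these paralogs is not given in the sources used here, so the split of molecules among Gzmd, Gzme and Gzmf is uncertain.

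Of 14899 cells in the table, 10491 with 1 sample tag passed the filters on cells (3336, 3486 and 3669 in tags 8, 9 and 10), with a median of 3489 molecules per cell. The gates held 656 CD8 T cells (137, 242 and 277 by tag), 324 CD4 T cells without Foxp3 (89, 114 and 121), 190 Foxp3-positive Treg cells (53, 71 and 66), 176 gamma-delta T cells (43, 55 and 78) and 65 NK cells (11, 26 and 28). The strict NK gate admitted no molecule of Cd3d, Cd3e, Cd3g, Trac, Trbc1 or Trbc2. A wide NK gate, added after values were seen, allowed transcripts of Trbc1 and Trbc2 but none of Cd3d, Cd3e, Cd3g or Trac. It held 421 cells (100, 163 and 158), including every strict NK cell, so the NK gates are not independent. Neither NK gate set a limit on gamma-delta receptor transcripts. In the wide gate Trdc was found in 24 of the 69 cells with Gzmc and 95 of the 352 cells without. The median molecules per cell were 5177 in CD8 T, 4141.5 in Treg, 3801 in wide NK, 2972.5 in gamma-delta T, 2949 in CD4 T and 2744 in strict NK cells. The gamma-delta gate, defined by Trdc and CD3 without Trac, also had Trbc2 at 519 to 978 CPM, so its label is less secure. CPM is molecules of a gene per 1000000 molecules of the gate. A 6-gene innate lymphoid list (Il7r, Cxcr6, Tmem176b, Itga1, Gata3, Rora) was at 2537 to 3229 CPM in the gamma-delta gate, above the other gates. The list was also at 1706 to 2048 in CD4 T cells, so it does not single out innate lymphoid cells. The part of other cells in the values of the gamma-delta gate was not tested.

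Levels are CPM of molecules summed over the cells of a gate within a tag. A tag pools 3 mice, the spread over tags mixes tumour genotype with all other differences between the pools, and intervals cover counting error only. The 8 members together made up 5460 CPM in wide NK, 4621 in strict NK, 2284 in CD8 T, 836 in Treg, 508 in CD4 T and 398 in gamma-delta T cells with the tags summed. B cells, which should lack these genes, showed 26.1 CPM.

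Perforin was highest in NK and CD8 T cells. Prf1 was at 547, 243 and 289 CPM in strict NK cells of tags 8, 9 and 10, at 337, 345 and 346 in wide NK cells, and at 324, 307 and 164 in CD8 T cells. The NK and CD8 ranges overlapped, and all 3 tags of each lay above every tag of the other gates. Those were 45.5, 42.2 and 24.1 CPM in gamma-delta T cells, 26.5, 31.6 and 36.0 in Treg cells, and 19.8, 22.9 and 0 in CD4 T cells. Gamma-delta and Treg ranges overlapped, while the CD4 range lay below that of Treg cells. B cells held 1 Prf1 molecule in all.

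Gzmb was the member with the widest distribution. CD8 T cells had 1178, 1401 and 1093 CPM, strict NK cells 572, 899 and 823, wide NK cells 633, 1264 and 1048, and Treg cells 554, 801 and 754. The CD8 range lay above the strict NK and Treg ranges, which overlapped each other, but overlapped that of the wide NK gate. In Treg cells Gzmb made up 86.1% of all molecules of the 8 members, with Prf1 at the low level given above. CD4 T cells had 195, 232 and 529 CPM, but in tag 10 a single cell of 8798 molecules carried 186 of the 221 Gzmb molecules, and without it that tag stood at 85.5. Gamma-delta T cells had 205, 137 and 92.6 CPM, overlapping the CD4 range. B cells had 12.5, 17.3 and 21.9 CPM.

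Gzma was above all an NK transcript. Strict NK cells had 3678, 2717 and 4024 CPM and wide NK cells 2691, 3382 and 3338, and every tag of the T cell gates was at or below 408. CD8 T cells had 235, 185 and 408 CPM, overlapping gamma-delta T cells with 144, 264 and 161. CD4 T cells followed with 66.0, 135 and 40.7, and Treg cells with 23.6, 142 and 33.8. The high Treg value of tag 9 rested on 1 cell that held 62 of 72 molecules, and without it the tag stood at 19.9. Single cells also carried other low values, 18 of 19 molecules in gamma-delta tag 8 and 18 of 20 in CD4 tag 8. Without the top cell of each tag, gamma-delta T cells stood at 7.89, 193 and 70.3 CPM and CD4 T cells at 6.65, 72.1 and 7.24, so these ranges then overlapped. The NK ranges stood apart from those of all T cell gates.

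Gzmk had a different order, with CD8 T cells above CD4 T cells and almost none elsewhere. CD8 T cells had 88.9, 152 and 126 CPM (671 molecules in 245 cells) and CD4 T cells 39.6, 66.1 and 45.5 (57 molecules in 26 cells), and the ranges did not overlap. Wide NK cells had 6.02, 9.36 and 7.37 CPM from 17 molecules. Strict NK and Treg cells held 1 molecule each and gamma-delta T cells 0. Of all Gzmk molecules in the kept cells, 69.6% lay in the CD8 gate, while for Gzma, its neighbour on chromosome 13, the CD8 share was 9.56% and the wide NK share 45.1%.

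The remaining chromosome 14 granzymes were low on average and uneven. Gzmc was at 506, 947 and 761 CPM in wide NK cells, but at 0, 52.9 and 18.1 in the few strict NK cells. CD8 T cells had 559, 71.3 and 139 CPM, Treg cells 11.8, 11.8 and 4.50, gamma-delta T cells 114, 31.7 and 4.02, and CD4 T cells 89.1, 5.09 and 4.79. Tag 8 was the highest of the 3 in the CD8, gamma-delta and CD4 gates, but 1 cell held 236 of 509 molecules in the first, 15 of 15 in the second and 20 of 27 in the third. Without that cell tag 8 stood at 313, 0 and 24.5 CPM. The 5 gates overlapped their neighbours in the order of levels. Gzmd (268, 8.02 and 35.4 CPM), Gzme (77.9, 31.6 and 48.6) and Gzmf (144, 56.2 and 88.3) were chiefly found in CD8 T cells. The strict NK and gamma-delta gates held no molecule of the 3 genes, and the CD4 gate held 0 of Gzmd and 1 each of Gzme and Gzmf. In wide NK cells Gzmd stood at 8.03, 140 and 11.0 CPM, with 112 of its 133 molecules in 1 cell.

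**Figure D1:**
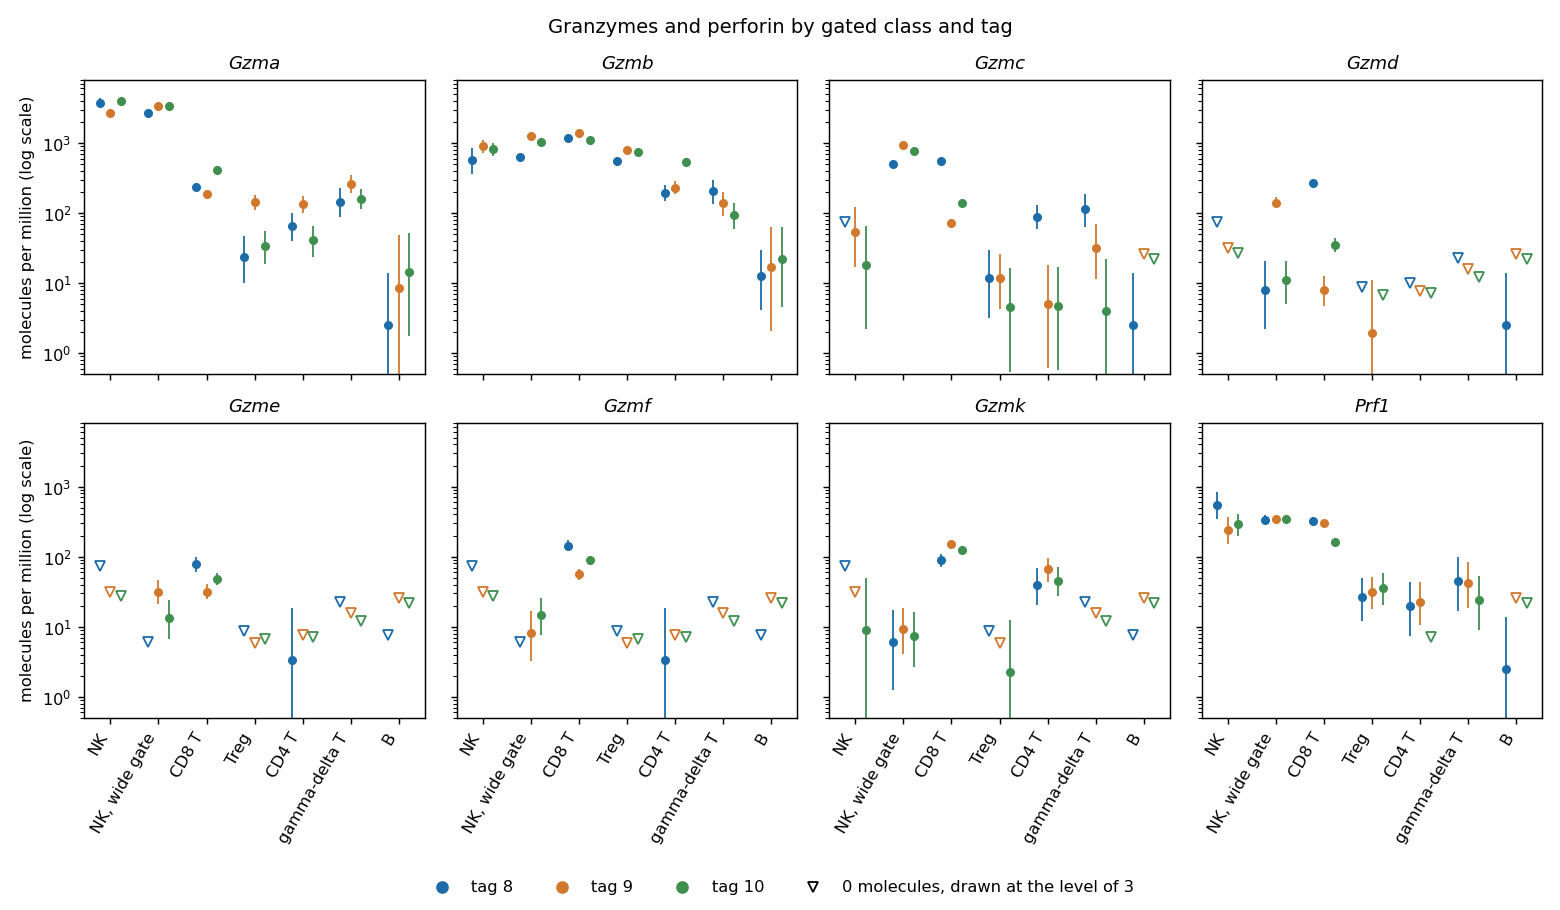
Level of each of the 8 members in the lymphocyte gates and in B cells, as CPM on a log axis; each point is 1 sample tag, each bar its exact Poisson 95% interval, and open triangles mark 0 molecules drawn at the level of 3. Gzma stands highest in both NK gates, Gzmb stands at 1093 to 1401 in CD8 T cells and at 554 to 1264 in both NK gates and Treg cells, and Gzmk is limited almost to CD8 and CD4 T cells. Gzmd to Gzmf have nonzero points in every tag of the CD8 gate, several in the wide NK gate and few elsewhere.

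Each pair of gates was then compared within tags. A gene was called where every tag with a ratio put its CPM 2-fold or more higher, or 2-fold or more lower. Genes with at least 30 molecules over both gates were compared, counts under 3 were set to 3, and a gate with under 20 cells in a tag gave no ratio there. For strict NK against CD8 T cells that left tags 9 and 10. Gzma was higher, by a log2 ratio of 3.59 (the median over tags; 3.30 to 3.87), so 1 of 8 members was called higher where 4.49% of all 8916 compared genes were. Gzmk was lower, the 1 of 8 members called so against 2.21% of genes: 1 molecule in NK cells stood against 671 in CD8 T cells, 32.0-fold lower with a counting interval of 5.72 to 1265. Gzmb (log2 ratio -0.53) and Prf1 (0.24) were not called. Gzmd, Gzme and Gzmf had 0 molecules in NK cells against 336, 241 and 437. Over the summed tags they were at least 5.34-fold, 3.83-fold and 6.94-fold lower, but they were not called. Gzmc, with 7 molecules against 955, was not called either. The summed counts and folds in this comparison include tag 8, which gave no ratio. Tag 8 held 244 of the 336 CD8 Gzmd molecules, 125 of them in 1 cell.

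Against the wide NK gate, 1 of 8 members was called higher in NK cells, where 3.6% of genes were, and 2 of 8 lower, where 2.6% were. Gzma was again the higher one (3.52, 3.03 to 4.19), in a gate that includes the strict NK cells. Gzmf (-2.78, -4.58 to -2.58) and Gzmk (-4.03, -4.10 to -3.88) were lower. Gzmc did not keep 1 direction, with log2 ratios of -0.14, 3.73 and 2.45 in tags 8, 9 and 10, nor did Gzmd with -5.06, 4.13 and -1.68. Gzmb (-0.15) and Prf1 (0.17) again stood close to 0 and were not called. Without tag 8, or without the CD8 T cells over 20000 molecules, Gzmc was called higher in wide NK cells (3.09 and 3.76), and without tag 9 Gzmd and Gzme were called lower (-3.37 and -2.77).

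CD8 T cells against CD4 T cells gave the most called members: 6 of 8 were higher in CD8 T cells, against 2.98% of 9188 genes, and 0 were lower, against 3.09%. They were Prf1 (log2 ratio 4.03, 3.75 to 4.51), Gzmf (3.62), Gzmc (3.22, 2.65 to 4.28), Gzme (2.76), Gzmb (2.60, 1.05 to 2.60) and Gzmk (1.20, 1.17 to 1.47). The median over the 8 members was 2.68, beside -0.04 over all compared genes. Gzme and Gzmf rest on 1 CD4 molecule each, which gives summed ratios of 52.1-fold (9.27 to 2068) and 94.5-fold (16.9 to 3743). Gzmd, with 336 molecules against 0, was at least 24.2-fold higher over the summed tags but was not called. The smallest Gzmb ratio came from tag 10, where the single CD4 cell named above lies. Gzma was not called (1.83, with 0.46 in the lowest tag and 3.33 in the highest), but without tag 9 both Gzma (2.58) and Gzmd (3.53) were. Without the CD8 T cells over 20000 molecules Gzmc (2.97) and Gzme (2.33) were not called, and Gzme (1.74) was not without the top cells.

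Treg cells against CD4 T cells allowed 5 of the 8 members to be compared. None was called higher, against 2.72% of 7349 genes, and Gzmk was called lower, against 2.26%. Gzmk stood at 1 molecule against 57 and was 66.0-fold lower in Treg cells (11.4 to 2653). Gzmb was higher in Treg cells in every tag, with log2 ratios of 1.51, 1.79 and 0.51, but tag 10 missed the 2-fold limit. With the top cell of each gate and tag left out the median was 1.74 and Gzmb was called, as it was without tag 10 (1.65). Prf1 had a median log2 ratio of 0.46 (0.42 to 2.33) and was not called.

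Gamma-delta T cells against CD4 T cells gave no call in either direction among 5 compared members, where 1.78% of 6284 genes were called higher and 1.23% lower. Gzma had a median log2 ratio of 1.13 (0.97 to 1.98), Prf1 1.20 (0.88 to 1.75) and Gzmb -0.76 (-2.51 to 0.07). Gzmk was at least 9.72-fold lower over the summed tags, with 0 molecules against 57. Gzma was called higher when the top cell of each gate and tag was left out (2.33) or without tag 9 (1.56), and Gzmk was called lower without tag 8 (-1.99).

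Within the CD8 gate, cells were split by transcripts of the inhibitory receptors PD-1, LAG-3 and TIM-3: 391 cells had at least 1 molecule of Pdcd1, Lag3 or Havcr2 and 265 had none. The split is a range of 1 gate and not a cell type, and it tracks depth, with medians of 7870 and 3676 molecules. Of the members, 4 of 8 were called higher in checkpoint-positive cells, against 2.69% of 8775 genes, and 1 of 8 lower, against 2.88%. Prf1 was higher by a log2 ratio of 3.56 (1.88 to 5.61), at 442, 376 and 198 CPM against 37.5, 2.57 and 53.8, ranges that did not overlap. Gzmc (2.44, 1.40 to 6.12), Gzme (3.29) and Gzmf (4.16) were higher too. For Gzmf 434 molecules stood against 3 (42.0-fold, 14.3 to 204), for Gzme 241 against 0 (at least 23.3-fold), and for Gzmd 336 against 0 (at least 32.5-fold), the last without a call.

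Gzma went the other way: 151, 120 and 275 CPM in checkpoint-positive cells against 439, 475 and 838 in the rest, a log2 ratio of -1.61 (-1.98 to -1.54) with ranges that did not overlap. Gzmb stood at 1516, 1615 and 1172 CPM against 360, 449 and 838. Its ranges did not overlap either, but the log2 ratios of 2.07, 1.85 and 0.48 left it without a call because of tag 10. Gzmk had a median log2 ratio of -0.49 (-0.73 to 0.40). With every cell thinned to 1000 molecules, Gzmc and Prf1 stayed called (Prf1 2.69) while Gzme, Gzmf and Gzma were not (Gzma -0.49). Without the 43 CD8 T cells over 20000 molecules, 42 of them checkpoint-positive, Prf1 and Gzmf stayed called and Gzma (-1.24), Gzmc and Gzme did not.

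**Figure D2:**
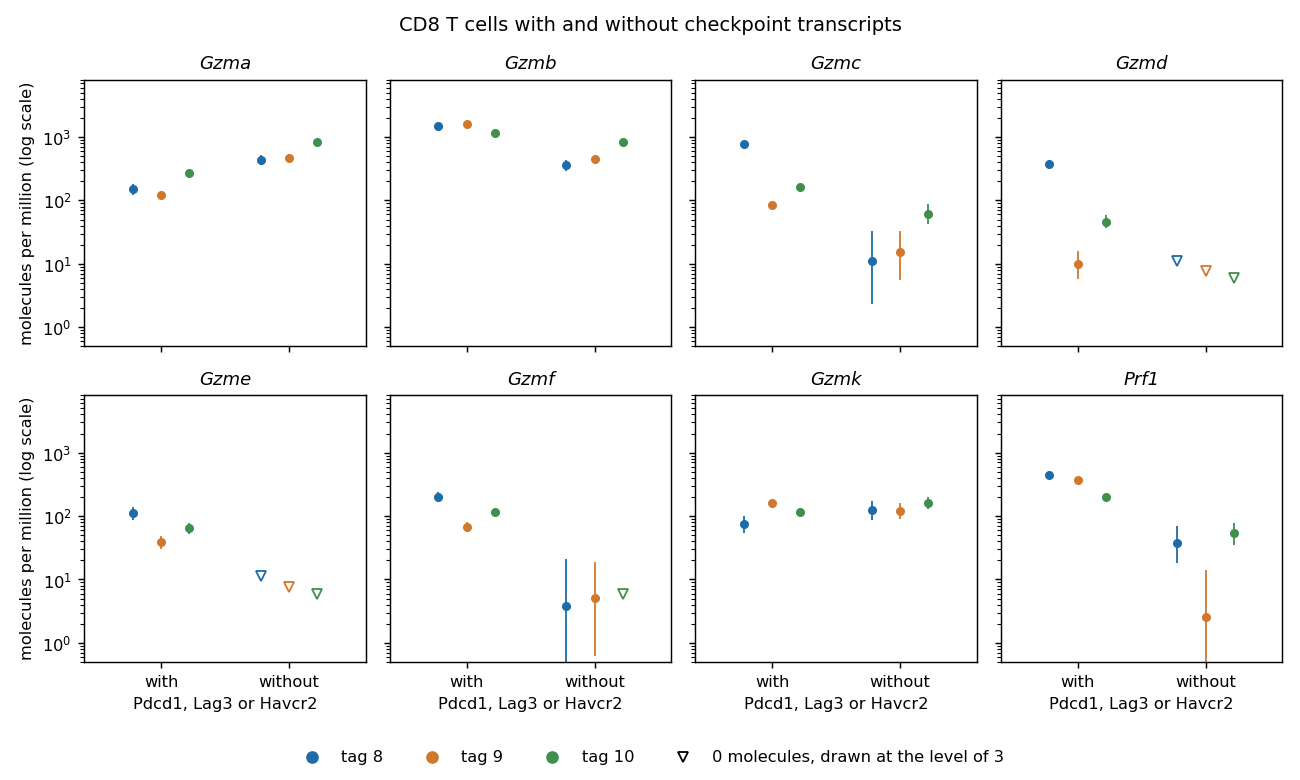
Level of each member in CD8 T cells with and without Pdcd1, Lag3 or Havcr2 transcripts, as CPM on a log axis; points are the 3 tags, bars exact Poisson 95% intervals, and open triangles 0 molecules drawn at the level of 3. Prf1 stands at 198 to 442 against 2.57 to 53.8 and Gzma at 120 to 275 against 439 to 838, in opposite directions.

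The split by the proliferation transcripts Mki67 and Top2a gave fewer calls. Of the 8 members 1 was higher in the 305 cycling cells than in the 351 others, against 2.81% of genes, and 0 were lower, against 1.73%. The called member was Gzmc (1.45, 1.41 to 5.03), a gene at low level in most CD8 T cells. Without the CD8 T cells over 20000 molecules, all 43 of which were in the cycling group, it had a median of 1.53 and was not called.

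The low average levels of Gzmc to Gzmf in CD8 T cells came from few cells with many molecules. For Gzmd, 2 cells held 50% of the molecules, for Gzme 2, for Gzmc 3 and for Gzmf 3, while Gzma needed 11 cells, Prf1 25, Gzmb 40 and Gzmk 52. The top 3 cells held 81.5% of Gzmd, 61.9% of Gzmc, 60.6% of Gzme and 60.4% of Gzmf, against 9.81% of Gzmb and 6.86% of Gzmk. A cell of tag 8 with 38873 molecules carried 325 of Gzmb, 236 of Gzmc, 125 of Gzmd, 38 of Gzme, 96 of Gzmf and 64 of Prf1. A cell of tag 10 with 15407 molecules carried 94, 36, 74, 90, 79 and 20 of the same genes. Another of tag 8, with 27236 molecules, carried 211 of Gzmc and 75 of Gzmd but 1 of Gzmf, and another of tag 10, with 23896, carried 144 of Gzmc and 89 of Gzmf but 0 of Gzmd. The counted mixture of the 4 granzymes thus differed among these cells, though the split among Gzmd, Gzme and Gzmf is uncertain, as said above. A tag 9 cell of 7941 molecules carried 36 of Gzmf, 12 of Gzme and 1 of Gzmc. In all 5 of these cells Gzma and Tcf7, a transcription factor of naive and stem-like T cells, were at 0.

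**Figure D3:**
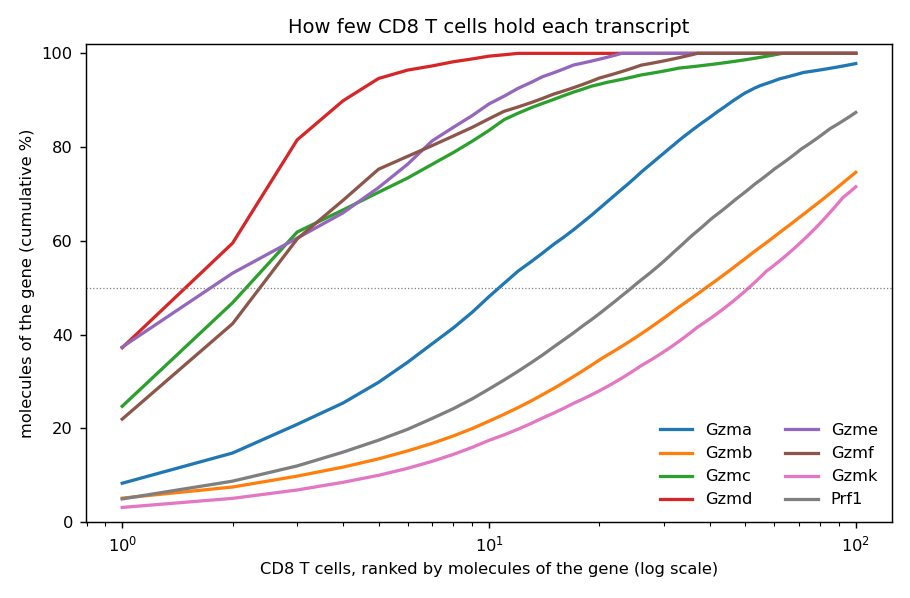
Cumulative percent of each member's molecules in the CD8 gate against the number of cells ranked from most to fewest molecules, on a log axis; the dotted line marks 50%. The curves of Gzmc, Gzmd, Gzme and Gzmf cross the line within 3 cells, and those of Gzmb and Gzmk at 40 and 52 cells.

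At least 1 molecule of Gzmd, Gzme or Gzmf was found in 50 of 656 CD8 T cells (7.62%, exact binomial 95% interval 5.71 to 9.93). All 50 also held Gzmb, 15 held at least 2 of the 3 genes and 7 held all 3. Of the checkpoint-positive cells 48 (12.3%, 9.19 to 15.9) had such a molecule, against 2 of 265 of the others (0.755%, 0.0915 to 2.70). The 50 cells were deep, with a median of 14501.5 molecules, so part of this difference cannot be told apart from depth.

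Combinations within cells were read after each cell had been thinned to 2000 molecules. This left 624 CD8 T, 387 wide NK and 54 strict NK cells, and shallower cells were left out. In CD8 T cells Gzmb was detected in 49.4% of cells and Prf1 in 18.8%, against 1.34% of B cells for Gzmb, whose share before thinning was 3.40% at a median of 2252 molecules. Prf1 was found in 28.2% of Gzmb-positive CD8 T cells (87 of 308, 23.3 to 33.6) and in 9.49% of Gzmb-negative ones (30 of 316). The tags gave 34.2%, 33.6% and 21.1% against 12.6%, 8.25% and 8.33%, the same direction in each. In wide NK cells the shares were 49.8% and 28.6%, or 50%, 48.5% and 51.2% against 36.7%, 15.1% and 33.3% by tag. Before thinning they were 45.4% and 15.4% in CD8 T cells, and 66.1% of the Gzmb-positive wide NK cells held Prf1. In strict NK cells they were 58.6% and 12% after thinning.

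Gzma and Prf1 met in NK cells but rarely in CD8 T cells. Gzma, Gzmb and Prf1 were detected together in 25.8% of wide NK cells and 31.5% of strict NK cells but in 1.6% of CD8 T cells. Among CD8 T cells, those with Gzma held Gzmb more often than those without (75% against 45.4%) and Gzmk more often (34.5% against 16.1%), and Prf1 in 11.9% against 19.8%. Cells with Gzmk held Gzmb in 62.9% against 46.3% of cells, and Prf1 in 17.2% against 19.1%. Gzmc-positive CD8 T cells (31 after thinning) held Gzmb in 87.1% and Prf1 in 51.6%, against a Prf1 share of 17% in cells without Gzmc. All thinned cells with Gzmd (8), Gzme (14) or Gzmf (21) held Gzmb, and 7 of the 8 with Gzmd held Gzme. Cells are not replicates, so these shares are given as descriptions.

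Most T cells that had Gzmb had no detected Prf1, and in each T cell gate the largest group had neither. Gzmb without Prf1 held for 35.4% of CD8 T cells, 37.1% of Treg cells, 9.68% of gamma-delta T cells and 8.82% of CD4 T cells, both genes were found in 13.9%, 3.53%, 1.29% and 1.10%, and neither in 45.8%, 58.2%, 87.1% and 89.0%. The NK gates had both genes in 31.5% (strict) and 28.2% (wide), and Gzmb alone of the pair in 22.2% and 28.4%. No member at all was detected in 22.2% of strict NK cells, 10.3% of wide NK cells, 37.0% of CD8 T cells, 57.6% of Treg cells, 79.8% of CD4 T cells and 81.3% of gamma-delta T cells. These shares depend on depth: before thinning, 100 of 190 Treg cells held Gzmb and 19 held Prf1. In CD8 T cells the unthinned counts were 383 and 216 of 656.

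**Figure D4:**
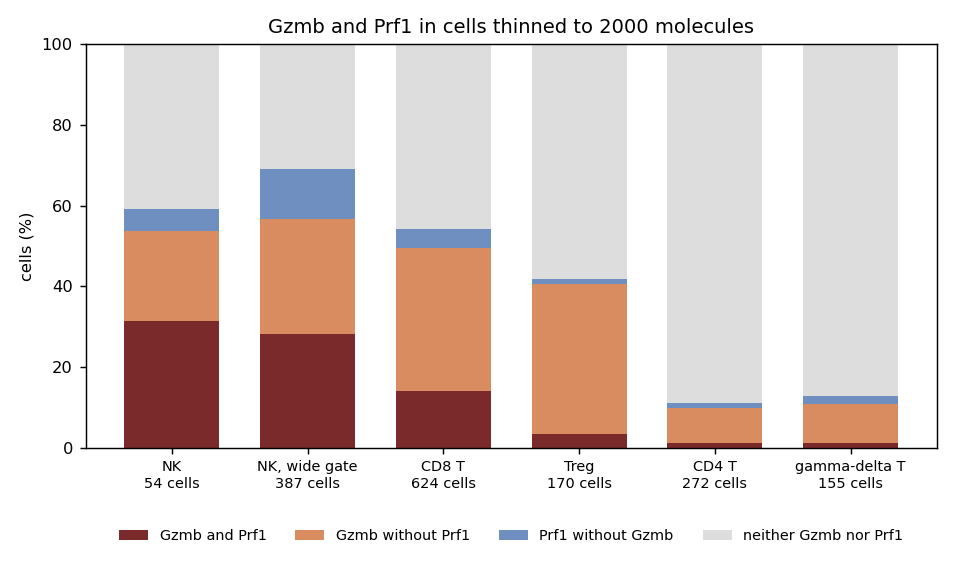
Percent of cells of each gate, thinned to 2000 molecules, with Gzmb and Prf1, Gzmb without Prf1, Prf1 without Gzmb, or neither, as stacked bars that sum to 100%. Both genes together make up 28.2% of wide NK cells, 13.9% of CD8 T cells and 3.53% of Treg cells, and Gzmb without Prf1 makes up 37.1% of Treg cells and 35.4% of CD8 T cells.

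Within the wide NK gate the members split along Gzmc, a division chosen after values were seen. The 69 cells with Gzmc (median 9514 molecules) had Gzma at 1470, 2300 and 2024 CPM, and the 352 without it (median 3529.5) at 3176, 3979 and 3850, with no overlap. After thinning, Gzma was detected in 46% of the cells that still held Gzmc (23 of 50) and in 82.2% of the others (277 of 337), and Gzmb in 58% and 56.4%. Prf1 stood at 416 CPM with Gzmc and 311 without. Other transcripts differed as well: the NK and effector transcription factor Eomes was at 309 CPM against 675. Of the 3 NK receptor genes of the gate, Ncr1 was higher with Gzmc (298 against 153), and Klrb1c (141 against 342) and Klre1 (444 against 568) were lower. Of the 6 innate lymphoid genes 4 were higher with Gzmc over the summed tags, namely Rora (252 against 195), Itga1 (66.8 against 30.1), Tmem176b (56.4 against 12) and Cxcr6 (16.3 against 4.69), and Il7r (37.1 against 60.2) and Gata3 (87.6 against 113) were lower. Of these 6 only Tmem176b kept its direction in every tag (42.4, 52.6 and 70.1 against 8.42, 18.1 and 8.53). Mki67, a proliferation gene, was at 324 against 145. The groups differ in depth by the way they were drawn. With the same groups thinned to 2000 molecules (69 and 318 cells), Prf1 was detected in 40.6% with Gzmc and 40.6% without. Eomes was detected in 43.5% and 61.3%, Ncr1 in 36.2% and 24.5%, and Klrb1c in 24.6% and 50.9%. Klre1 was detected in 62.3% and 66.7%, and Mki67 in 29.0% and 7.23%. Beyond these shares, the part of depth in the CPM differences was not tested.

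The other genes of the granule pathway, a list of 23, gave few calls. In CD8 T against CD4 T cells 3 of 21 compared genes were higher and 0 lower, where 2.98% and 3.09% of all genes were: Eomes (3.67), Cst7 (2.70), which encodes the cathepsin inhibitor cystatin F, and Nkg7 (2.27), a granule membrane protein. In both NK gates against CD8 T cells 2 of 21 were higher and 0 lower (4.49% of all genes were higher with the strict gate and 3.6% with the wide gate), namely Serpinb9b, a serpin (2.52 strict, 2.95 wide), and Eomes (2.01 and 2.02). Treg cells had Cst7 (1.76) and Stx11 (1.18), a syntaxin of granule fusion, higher than CD4 T cells, and Ifng (-2.84), Fasl (-2.50) and Ctsw (-2.46) lower, among 19, where 2.72% of all genes were higher and 2.26% lower. Gamma-delta T cells had Ifng lower (-1.42) and nothing higher among 19, where 1.23% of all genes were lower. In the checkpoint split only Gzmm, a further granzyme gene, was called, lower in checkpoint-positive cells (-2.74), 1 of 21 where 2.88% of all genes were lower, and 0 of 21 were called in the cycling split. The median log2 ratio of the list in CD8 against CD4 T cells was 0.56, beside 2.68 for the 8 members. Among the T cell state genes reported here, Tcf7 (-2.31), Il7r (-2.80) and Slamf6 (-1.38), genes of naive and memory T cells, were lower in checkpoint-positive CD8 T cells; Pdcd1, Lag3 and Havcr2 defined that split.

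Genes most like each member across the 15 gate-by-tag sums, among 5585 genes with the members themselves left out of the ranking, by Pearson r of log2(CPM + 10), are given as a description, since the points share libraries and gates. Gzma was nearest to Irf8 (0.96), a transcription factor, then to Tm6sf1 (0.94) and Rpl10-ps3 (0.91). Gzmb was nearest to Ssr2 (0.92), Tk1 (0.91) and Rfc2 (0.90), of which Tk1 and Rfc2 act in DNA synthesis. Prf1 was nearest to Nkg7 (0.90), the chemokine gene Ccl5 (0.90) and Serpinb6b (0.88), and Gzmk to Igfbp7 (0.91), the T cell gene Themis (0.87) and Dnajc15 (0.83). Gzmd, Gzme and Gzmf were nearest to Cd8b1 (0.82, 0.98 and 0.98) and Cd8a (0.80, 0.97 and 0.97), which define the CD8 gate, and then to Igfbp7 (0.80) for Gzmd and Slc17a6 for Gzme (0.92) and Gzmf (0.93). Gzmc was nearest to the ribosomal protein genes Rpl5 (0.84), Rps6 (0.82) and Rps9 (0.81). Between members the same measure was highest for Gzme and Gzmf (0.999), followed by Gzmd with Gzme (0.90) and with Gzmf (0.90). Of these paralogs, Gzmd shares 50-base windows with each of the others, while Gzme and Gzmf share 0. In the other gates of these sums, which leave out wide NK cells, the 3 genes stood at 0 to 3.30 CPM. The values of r thus mostly separate the CD8 gate from those gates. In wide NK cells Gzmd reached 140 CPM in tag 9. Within CD8 T cells thinned to 2000 molecules, the Pearson r of log-scaled levels of Gzme and Gzmf was 0.40. Across the gate-by-tag sums, r was 0.75 to 0.77 for Gzmc with each of these 3 genes, 0.78 for Gzma and Prf1, and 0.57 for Gzmb and Prf1. It was 0.25 for Gzma and Gzmb and -0.15 for the neighbours Gzma and Gzmk.

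Cells outside the 5 gates and the wide NK gate held 43.4% of the Gzma molecules of all kept cells, 35.4% of Gzmb, 31.2% of Prf1, 24.1% of Gzmc and 22.6% of Gzmk. The CD8 gate held 89.9% of Gzmf and 80.6% of Gzme. Marker transcripts of mast cells and basophils, which can also make granzymes, were at 2.20 to 12.3 CPM in CD8 T cells, 22.1 to 40.2 in wide NK cells and 31.7 to 149 in strict NK cells over 6 genes, with Fcer1a and Ms4a2 at 0 in all 3 gates. Their part in the NK values was not tested.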

How the data were processed

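The deposited table holds counts of molecules per cell and gene after the authors' error correction, made with version 1.9.1 of the BD Rhapsody whole-transcriptome pipeline on GRCm38 with GENCODE vM19, per the file headers. The submitters' processing notes name GRCm39 instead; promoter and gene positions here are on GRCm38. One table held all cells, with 1448 cells of more than 1 tag and 361 of undetermined tag left out of the gates; no doublet caller was run, so doublets within a tag remain. Cells had at least 200 genes, at most 25% mitochondrial molecules and, in lymphocyte gates, at most 3 molecules of 12 genes of other lineages. Counts were summed per gate and tag and divided by the sum of all genes. Intervals are exact Poisson (CPM) and Clopper-Pearson (shares) at 95%. Pearson correlations used log2(CPM + 10). Promoters came from RefSeq.

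The members, gates and gene lists were chosen with earlier results of these data known. The genes named are the members, the granule pathway, cell state and marker lists, and the genes most like each member (at least 200 molecules); a gene of the cell state list is not reported here. These choices were made after values were seen: the wide NK gate, the rule that a gate set to 3 counts in a tag cannot be called the higher one, and leaving out cells over 20000 molecules or the top cell. Alternatives were TMM scaling (edgeR 4.0.16, R 4.3.3), thinning, other filters and gates, per-cell means, pooling with undetermined tags, and leaving out each tag. Scripts ran in Python 3.11.15 with numpy 2.4.6, scipy 1.17.1, pandas 2.3.3 and Biopython 1.88. The call rule was tried on simulated Poisson counts, drawn for every tag from the same summed CD8 and CD4 profile with some genes changed. That simulation had no uneven cells or tag differences, so it cannot show how the rule does for members held by few cells.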

Additional observations from a re-analysis of the deposited data

Results flagged for a closer look

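Cells that carried more than 1 sample tag took no part in the comparisons, and each of the 8 members was detected in them, in 1271 such cells that passed the filters. Gzma stood at 224.4 CPM there against 242 in the kept single-tag cells, Gzmb at 293 against 243, Prf1 at 62.0 against 48.2 and Gzmk at 14.9 against 15.1. Gzmc stood at 100.2 against 55.9, Gzmd at 18.3 against 7.89, Gzme at 13.1 against 4.69, and Gzmf at 2.22 against 7.62. The Gzmd molecules (190) lay in 3 cells, the Gzme molecules (136) in 4 and the Gzmf molecules (23) in 8. All were above the level that a count of 0 allows, and no cause was tested.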

How the results depend on the processing

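Whether a member was called stayed the same in 712 of the member log2 ratios recomputed under an alternative. Of the others, 46 gained a call, 17 lost one and 1 reversed its sign with a call in either setting. Ratios without a call in both settings count as the same even where the sign changed. The counts of called members changed as follows, and the cause was not tested. In NK against CD8 T cells 1 member was lower; TMM scaling gave 2, thinning to 1000 molecules 0, other gate strictness 3 and pooling with undetermined tags 5, and without 1 tag 1 to 3. The reversal was Gzmd in the pooled setting (-2.42), where the NK count was 0. Of the 6 members higher in CD8 than CD4 T cells, thinning left 3, leaving out the deep CD8 cells 4, and per-cell means, at most 1 other-lineage molecule or leaving out the top cell 5 each, while pooling gave 8 and leaving out 1 tag 6 to 8. In Treg against CD4 T cells 0 were higher, and thinning, per-cell means and leaving out the top cell gave 1, pooling 2, and leaving out 1 tag 0 to 1. In that comparison 1 was lower, against 0 when thinned and 2 with other gate strictness, pooling or without the top cell, and 1 to 2 without 1 tag. In gamma-delta against CD4 T cells 0 were higher, against 1 with no other-lineage limit or without the top cell and 2 with at most 1 such molecule or pooling, and 0 to 1 without 1 tag; 0 were lower, against 2 when pooled and 0 to 1 without 1 tag. In the checkpoint split 4 were higher, against 2 when thinned or without CD8 T cells over 20000 molecules; the 1 lower member, Gzma, was lost (0) when thinned, by per-cell means, without those deep cells or without the top cell. In the cycling split 1 was higher, against 0 without the deep cells and 1 to 2 without 1 tag; 0 were lower, against 1 when pooled and 0 to 1 without 1 tag. With the wide NK gate 1 was higher, against 2 when pooled or without the deep cells and 1 to 2 without 1 tag; 2 were lower, and 2 to 4 without 1 tag. Co-detection moved with depth: Prf1 in Gzmb-positive CD8 T cells was 28.2%, but 19.2% thinned to 1000 molecules and 45.4% unthinned, and 24.0% to 33.7% without 1 tag. In Gzmb-negative CD8 T cells 9.49% became 15.4% unthinned. In wide NK cells 49.8% became 33.7% at 1000 molecules and 66.1% unthinned, and 28.6% became 20.5% at 1000. All ratios pair the gates within a tag; no test with a replicate block was made, since the tags have no named genotype and are not replicates of a group. The strict NK gate rests on 65 cells.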
